A study of Mus musculus with 9 samples.

Results

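The elastic fibre and crosslinking genes described here are 10 genes chosen by symbol: elastin (Eln), fibrillin 1 (Fbn1), the fibulins Fbln1, Fbln2 and Fbln5, the microfibril-associated genes Mfap2, Mfap4 and Mfap5, and the lysyl oxidases Lox and Loxl1. All 10 were found, each as 1 of the 55359 genes in the table of lung RNA sequencing counts, and 9 passed the filter for testing. The mice were males of strain C57BL/6J, aged 6 to 8 weeks by the study's description, and lung was taken 28 days after an instillation into the trachea. Silica + ATL-III mice received 5 mg of silica in saline and also 30 mg/kg per day of atractylenolide III, a sesquiterpene lactone, in saline into the abdomen. Silica mice received the same silica instillation, and Control mice received saline into the trachea. Every mouse was thus instilled. ATL-III was always given on top of silica, and the descriptions mention no abdominal saline for Silica or Control mice. Each group held 20 mice and is represented by 3 libraries, which the labels do not tie to single mice, so p-values measure the spread between libraries, which may be partly technical. Depth was 16047175 to 17792481 counts per library, and all 12 lung epithelium markers, among them Sftpc, Ager and Scgb1a1, passed the filter.

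An elastic fibre has a core of crosslinked elastin laid down on a scaffold of microfibrils, which are built from fibrillins and carry small associated glycoproteins. Fibulins join tropoelastin to the microfibrils and to the crosslinking enzymes, and lysyl oxidases then oxidise lysines of elastin and collagen so that the chains can be joined. In the lung these fibres run through alveolar walls, airways and vessels and give the tissue its recoil, and most elastin is laid down during growth and turns over slowly afterwards. Lung fibroblasts, smooth muscle cells and mesothelial cells are the main makers of these proteins. In whole tissue, fewer cells of a type and less RNA per cell cannot be told apart.

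Most of the called differences were between Silica + ATL-III lungs and the other groups. Of the 9 tested genes, Fbn1, Fbln1, Fbln5, Mfap5 and Loxl1 fell in Silica + ATL-III compared with Silica, by 0.76 to 1.31 on the log2 scale, while Lox and Mfap2 rose. The same 5 genes were also lower and Lox was higher than in Control. Between Silica and Control, Mfap2 alone was called, and it was lower in Silica. Eln itself was called in none of the comparisons.

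**Figure D1:**
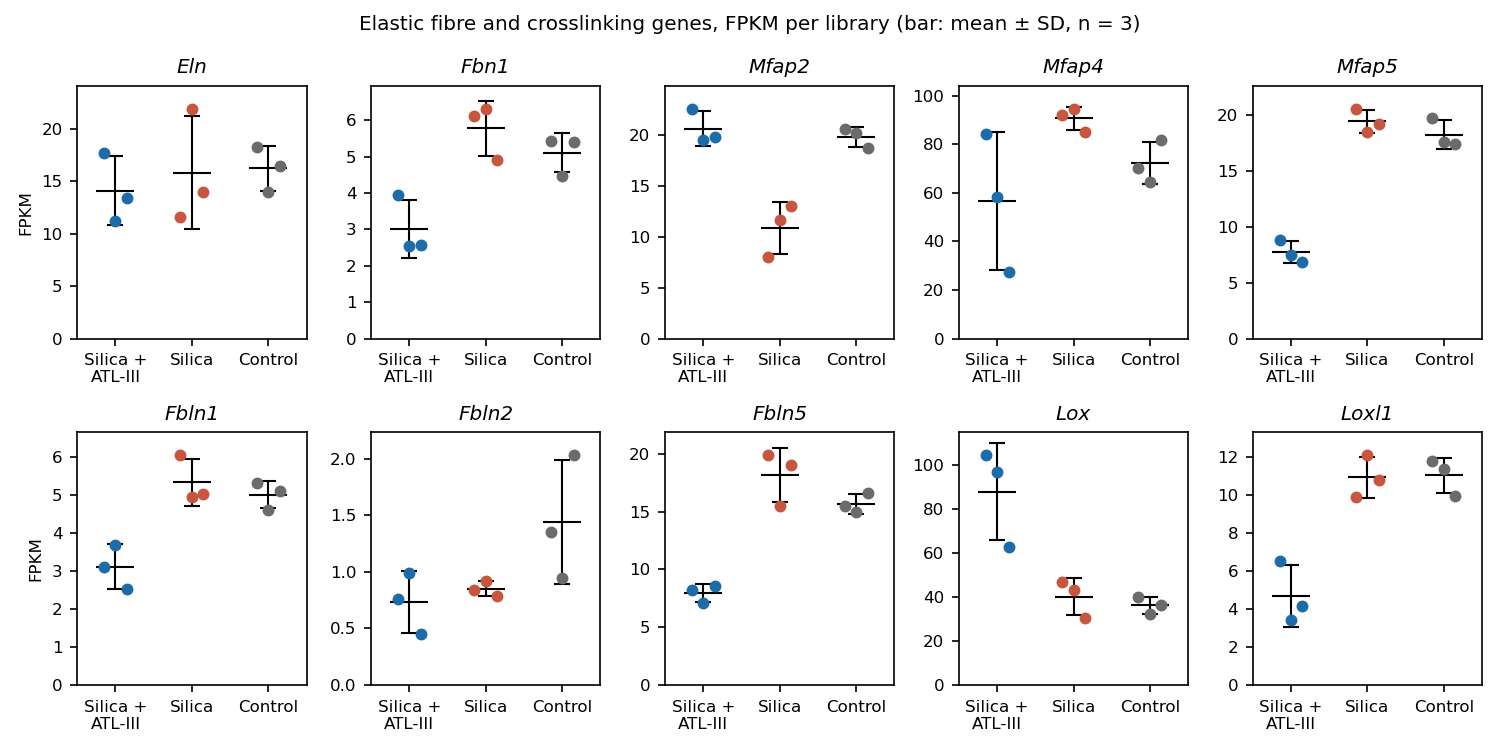
FPKM (fragments per kilobase of exon, scaled to library size, vertical axis, 1 panel per gene, each with its own scale from 0) in the Silica + ATL-III, Silica and Control libraries, with bars for the mean and SD of 3 libraries. The Silica + ATL-III libraries lie below the other 6 for Fbn1, Fbln1, Fbln5, Mfap5 and Loxl1 and above them for Lox, whereas for Mfap2 the Silica libraries are the low ones and for Eln the groups overlap.

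Levels can be compared between genes on the FPKM scale, which divides by exon length. In Control the order was Mfap4 at 72.4 ± 8.82 FPKM, Lox at 36.1 ± 3.73, Mfap2 at 19.8 ± 0.972, Mfap5 at 18.3 ± 1.32, Eln at 16.2 ± 2.12, Fbln5 at 15.7 ± 0.850, Loxl1 at 11.04 ± 0.942, Fbn1 at 5.10 ± 0.540, Fbln1 at 5.00 ± 0.355 and Fbln2 at 1.44 ± 0.546 (mean ± SD, n = 3). Ranges of the Control libraries overlapped between Mfap2 and Mfap5, between Mfap5 and Eln, between Eln and Fbln5 and between Fbn1 and Fbln1, so the order of those neighbours is not beyond their spread. In Silica + ATL-III, Lox had the highest mean, 87.7 ± 22.1 FPKM, ahead of Mfap4 at 56.6 ± 28.4 FPKM, although their ranges overlapped. There, Mfap2 came next at 20.6 ± 1.68 FPKM, while Fbln5 and Mfap5 stood near each other at 7.94 ± 0.776 and 7.73 ± 1.00 FPKM.

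Promoter sequences of 5 of the 10 genes (Fbn1, Fbln1, Fbln2, Fbln5 and Mfap2) are in the RefSeq-derived table used here (build GRCm38.p6, 250 bases before to 50 after an annotated start). Eln, Mfap4, Mfap5, Lox and Loxl1 had no entry. Shown are the first listed promoters of Fbn1, Fbln1 and Fbln5, which were lower in Silica + ATL-III, and of Mfap2, which moved the other way against Silica. Capitals mark GGGCGG, the core of a GC box, or its reverse complement CCGCCC.
Fbn1, chr2:125506389-125506688, minus strand: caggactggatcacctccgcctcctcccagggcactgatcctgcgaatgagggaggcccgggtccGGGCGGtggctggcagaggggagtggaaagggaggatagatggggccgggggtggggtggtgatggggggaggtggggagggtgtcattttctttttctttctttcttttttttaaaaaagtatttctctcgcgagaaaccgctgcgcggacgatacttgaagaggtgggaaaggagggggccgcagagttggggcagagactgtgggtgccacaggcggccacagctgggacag
Fbln1, chr15:85205699-85205998, plus strand: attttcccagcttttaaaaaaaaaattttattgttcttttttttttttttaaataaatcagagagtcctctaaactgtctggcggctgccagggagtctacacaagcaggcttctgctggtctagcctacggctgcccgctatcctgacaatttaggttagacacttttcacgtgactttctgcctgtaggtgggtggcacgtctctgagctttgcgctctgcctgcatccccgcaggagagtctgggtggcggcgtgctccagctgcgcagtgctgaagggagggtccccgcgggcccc
Fbln5, chr12:101819070-101819369, minus strand: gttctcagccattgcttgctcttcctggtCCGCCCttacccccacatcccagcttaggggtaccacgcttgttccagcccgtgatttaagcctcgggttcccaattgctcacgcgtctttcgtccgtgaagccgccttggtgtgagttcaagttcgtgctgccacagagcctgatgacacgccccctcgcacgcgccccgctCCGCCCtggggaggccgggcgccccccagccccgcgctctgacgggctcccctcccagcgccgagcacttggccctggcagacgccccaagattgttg
Mfap2, chr4:141010431-141010730, plus strand: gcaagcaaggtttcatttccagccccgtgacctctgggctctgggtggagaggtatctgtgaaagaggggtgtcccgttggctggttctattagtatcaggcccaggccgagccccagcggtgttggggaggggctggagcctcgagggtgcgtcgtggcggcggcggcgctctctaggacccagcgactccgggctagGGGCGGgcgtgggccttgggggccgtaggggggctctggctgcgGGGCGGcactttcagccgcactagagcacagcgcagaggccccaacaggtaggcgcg
GGGCGG on either strand occurred once in the Fbn1 window, 2 times each in the Fbln5 and Mfap2 windows and not in the Fbln1 window, against 35.7% of all 32851 promoters in the table that hold it. GC content was 60.3% for Fbn1, 51.7% for Fbln1, 65.7% for Fbln5 and 68% for Mfap2, with a median of 52.7% over all promoters. Neither TATAAA nor the AP-1 motif TGANTCA nor GGAATG was found in these 4 windows on either strand, and 13.6%, 7.81% and 14.7% of all promoters hold them. CAGACA, which contains the core of a SMAD element, occurred 1 time in the Fbln1 window and in 21.04% of all promoters. The E-box letters CANNTG, which read the same on both strands, occurred 1 time in the Fbn1 window and 2 times each in those of Fbln1 and Fbln5, were not found in that of Mfap2, and are held by 72.3% of all promoters. Fbln1, Fbln5 and Mfap2 each have a further listed start. The other Fbln1 window holds GGGCGG 2 times, while those of Fbln5 and Mfap2 hold none.

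Elastin, the elastic core protein (Eln, chromosome 5), stood at 17.66, 11.23 and 13.36 FPKM in Silica + ATL-III, at 11.55, 21.89 and 14.01 FPKM in Silica and at 18.24, 14.01 and 16.42 FPKM in Control. The 3 groups overlapped, and Silica 2 held the highest value. Its log2 fold change was -0.14 ± 0.21 for Silica + ATL-III against Silica (edgeR adjusted p = 0.69) and 0.05 ± 0.21 for Silica against Control (adjusted p = 0.89). The 95% intervals ran from 0.657 to 1.26-fold and from 0.751 to 1.43-fold, in that order, and both spanned no change. The smallest change in Eln that could be detected at this spread was not tested. Against Control, Silica + ATL-III differed by -0.09 ± 0.21 (adjusted p = 0.83). The sign changed in Silica + ATL-III against Silica without Silica + ATL-III 2 or Silica 2, in Silica + ATL-III against Control without Silica + ATL-III 2 or Control 1, and in Silica against Control without Silica 2 or Control 2. With 1 library left out, the values in Silica against Control ran from -0.23 to 0.23. By the root mean square difference of log2 values centred per gene over the 9 libraries, the genes most like Eln were Slc26a9 (0.0941), Large2, Caps2, Dnah12, Lrrc71, Zfp951, Kif11 and Gm1818 (0.145). The other tested members lay farther from Eln than that, from 0.409 for Fbn1 to 0.732 for Lox, where the median of all tested genes was 0.383.

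Microfibril genes split into separate patterns. Fibrillin 1 (Fbn1, chromosome 2), the main structural protein of microfibrils, had 3.94, 2.54 and 2.57 FPKM in Silica + ATL-III, 6.11, 6.31 and 4.92 FPKM in Silica and 5.42, 4.48 and 5.41 FPKM in Control. All 3 Silica + ATL-III libraries were below the other 6. Fbn1 fell by 0.92 ± 0.17 on the log2 scale in Silica + ATL-III against Silica (edgeR adjusted p = 0.0037) and was also lower than in Control (-0.64 ± 0.17, adjusted p = 0.026). The call against Control was lost without Silica + ATL-III 2 or 3 or without Control 1 or 3 (adjusted p up to 0.097). Of its exonic bases, 20.1% lie opposite exons of Gm9913 in GENCODE M21, a gene with 0 to 7 counts per library here. Between Silica and Control, Fbn1 differed by 0.28 ± 0.17 (adjusted p = 0.27).

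Mfap5, also called MAGP2, encodes a small glycoprotein that binds fibrillin and integrins (chromosome 6). Its values were 8.83, 7.49 and 6.87 FPKM in Silica + ATL-III, 20.56, 18.54 and 19.23 FPKM in Silica and 19.78, 17.59 and 17.40 FPKM in Control. Silica and Control libraries overlapped with each other and lay above all 3 libraries with ATL-III. By edgeR, Mfap5 fell by 1.31 ± 0.12 against Silica (adjusted p = 8.0e-05) and by 1.12 ± 0.12 against Control (adjusted p = 9.6e-05). These are the smallest p-values among the 9 tested members in both comparisons, and both calls were kept whichever single library was left out. In Silica against Control the difference was 0.19 ± 0.11 (adjusted p = 0.26).

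Mfap2 (MAGP1, chromosome 4), a microfibril glycoprotein of the same pair that in mice also binds active TGF-beta, went the other way. It had 22.51, 19.43 and 19.80 FPKM in Silica + ATL-III, 7.97, 11.64 and 12.95 FPKM in Silica and 20.56, 20.12 and 18.70 FPKM in Control. All 3 Silica libraries were below the other 6, and the Silica + ATL-III and Control libraries overlapped. Mfap2 fell by 0.77 ± 0.15 on the log2 scale in Silica against Control (edgeR adjusted p = 0.0089), or 0.586-fold, and was 1.93-fold higher in Silica + ATL-III than in Silica (0.95 ± 0.15, adjusted p = 0.0017). Both calls were kept without any single library. Silica + ATL-III and Control differed by 0.18 ± 0.15 (adjusted p = 0.47), with a 95% interval of 0.899 to 1.42-fold.

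Mfap4 (chromosome 11), a fibrinogen-like protein that binds elastin and fibrillin, was the member with the widest spread in 1 group. Silica + ATL-III libraries held 84.23, 58.17 and 27.44 FPKM, Silica libraries 92.27, 94.60 and 85.21 FPKM and Control libraries 70.42, 64.65 and 81.98 FPKM. Silica + ATL-III did not overlap with Silica, but the difference of -0.66 ± 0.28 missed the threshold (edgeR adjusted p = 0.12), as did 0.43 ± 0.28 for Silica against Control (adjusted p = 0.31). Without Silica + ATL-III 1 the decrease against Silica was called (-1.06, adjusted p = 0.017). With no filter on low genes both differences were called (adjusted p = 2.4e-05 and 0.015), and the one between Silica and Control was also called when the fit held only those 6 libraries (adjusted p = 0.029). Against Control, the value of -0.24 ± 0.28 (adjusted p = 0.62) became 0.11 without Silica + ATL-III 3. The Mfap4 and Mapk7 genes share 89 exonic bases on opposite strands (4.63% of Mfap4).

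The fibulins that could be tested fell with ATL-III. Fbln5 (chromosome 12), which tethers tropoelastin to microfibrils and binds LOXL1, had 8.19, 7.07 and 8.56 FPKM in Silica + ATL-III, 19.86, 15.51 and 19.07 FPKM in Silica and 15.50, 14.94 and 16.61 FPKM in Control. No Silica + ATL-III library came near the other 6, whose lowest value was 14.94 FPKM. Fbln5 fell by 1.18 ± 0.13 on the log2 scale against Silica (edgeR adjusted p = 0.00020) and by 0.86 ± 0.13 against Control (adjusted p = 0.00089), with both calls kept when any single library was left out. Silica and Control overlapped and differed by 0.31 ± 0.13 (adjusted p = 0.10), which was called without Silica 2 (adjusted p = 0.019).

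Fbln1 (chromosome 15), found in elastic fibres and basement membranes, had 3.11, 3.69 and 2.51 FPKM in Silica + ATL-III, 6.03, 4.93 and 5.01 FPKM in Silica and 5.30, 4.61 and 5.10 FPKM in Control. Its Silica + ATL-III libraries were again the lowest 3 of 9. By edgeR, it fell by 0.76 ± 0.16 against Silica (adjusted p = 0.0061) and by 0.57 ± 0.16 against Control (adjusted p = 0.030). The call against Control was lost without Silica + ATL-III 1 or 3 or without Control 1 or 3 (adjusted p up to 0.10). Silica differed from Control by 0.19 ± 0.15 (adjusted p = 0.41).

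Fbln2 (chromosome 6), a fibulin that binds elastin and fibrillin and is prominent in vessel walls, did not reach the filter of 1 FPKM in 3 libraries and has no test here. It had 0.76, 0.99 and 0.45 FPKM in Silica + ATL-III (79, 106 and 47 counts), 0.84, 0.92 and 0.79 FPKM in Silica (93, 99 and 89 counts) and 1.35, 0.95 and 2.03 FPKM in Control (141, 97 and 210 counts). The Control libraries spread most, and the lowest of them lay within the Silica + ATL-III range. In edgeR fits that did include it, the log2 fold change of Fbln2 in Silica + ATL-III against Control was -0.84 (adjusted p = 0.0033) with no filter and -0.83 (adjusted p = 0.090) with edgeR's own filter. In Silica against Control it was -0.65 (adjusted p = 0.035) and -0.64 (adjusted p = 0.16), so both calls depend on the filter. Silica + ATL-III differed from Silica by -0.19 under both (adjusted p = 0.67 and 0.72).

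The lysyl oxidases went in opposite directions. Lox (chromosome 18), the founding lysyl oxidase, which acts on elastin and collagen, had 104.15, 96.49 and 62.56 FPKM in Silica + ATL-III, 46.70, 42.99 and 30.49 FPKM in Silica and 39.79, 32.34 and 36.31 FPKM in Control. Every Silica + ATL-III library was above the other 6, whose highest value was 46.70 FPKM. Lox was 2.21-fold higher in Silica + ATL-III than in Silica (1.15 ± 0.20 on the log2 scale, edgeR adjusted p = 0.0026) and 2.63-fold higher than in Control (1.40 ± 0.20, adjusted p = 0.00077). Silica and Control overlapped and differed by 0.25 ± 0.20 (adjusted p = 0.40).

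Loxl1 (chromosome 9), the family member that binds fibulin 5 and acts on elastin in adult tissue, had 6.54, 3.42 and 4.17 FPKM in Silica + ATL-III, 9.92, 12.09 and 10.79 FPKM in Silica and 11.78, 11.36 and 9.98 FPKM in Control. Its Silica + ATL-III libraries were all below the lowest of the other 6. Loxl1 fell by 1.19 ± 0.19 against Silica (edgeR adjusted p = 0.0016) and by 1.11 ± 0.19 against Control (adjusted p = 0.0025), and the difference between Silica and Control was 0.08 ± 0.19 (adjusted p = 0.79). The calls of Lox and Loxl1 were all kept without any single library.

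**Figure D2:**
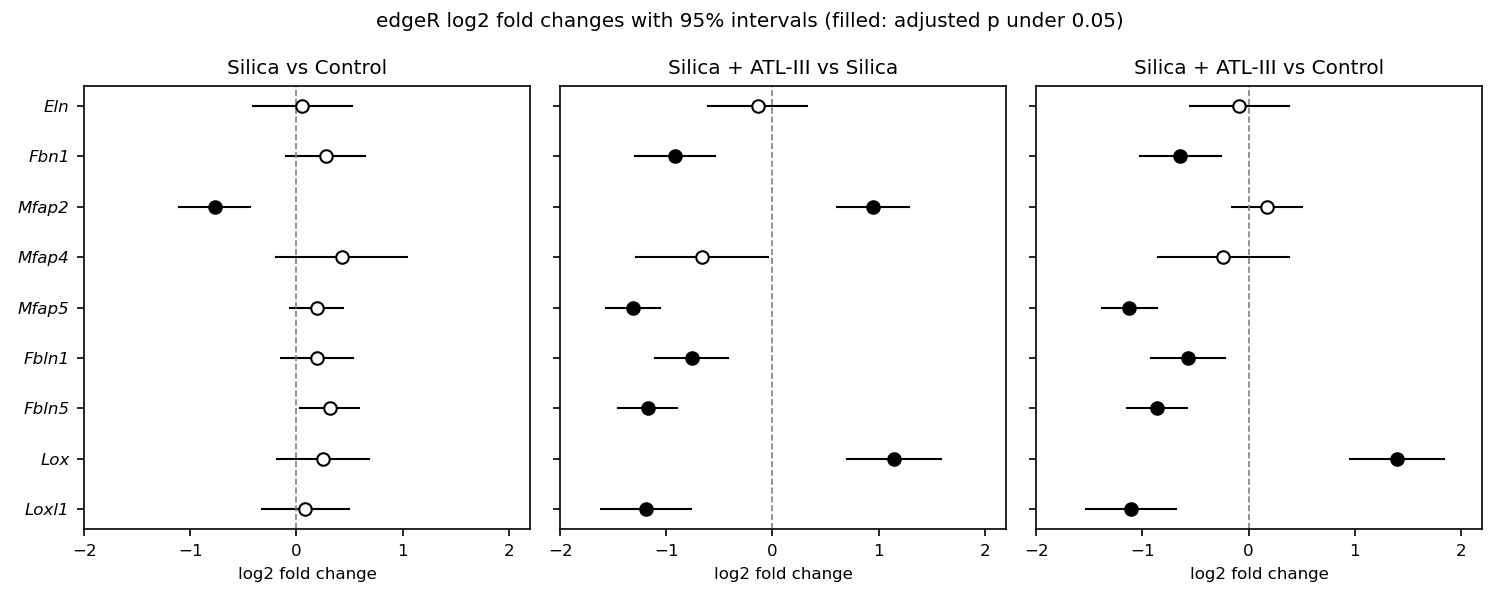
Log2 fold changes from edgeR (horizontal axis) of the 9 tested genes in the 3 comparisons, with 95% intervals as lines and filled points for an adjusted p under 0.05. In Silica vs Control the filled point is Mfap2, at -0.77. In both comparisons of Silica + ATL-III, Mfap5, Loxl1, Fbln5, Fbn1 and Fbln1 lie left of 0 and Lox lies right of it.

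Counted over the set, edgeR called 7 of the 9 tested members in Silica + ATL-III against Silica (2 higher, 5 lower), where 21.2% of all 15459 tested genes were called (11.2% higher and 10% lower). Against Control 6 of 9 were called in Silica + ATL-III (1 higher, 5 lower), beside 15.9% of all tested genes (9.14% higher and 6.71% lower). After silica alone 1 of 9 was called, which is near the share of all tested genes, 16.9% (9.11% higher and 7.81% lower). The median log2 fold change of the 9 was -0.76, -0.57 and 0.19 in these comparisons, in the order given, and that of all tested genes lay between -0.01 and 0.00. FPKM values of the groups did not overlap for 8 of the 10 members in Silica + ATL-III against Silica (35.1% of all tested genes), for 6 of 10 in Silica + ATL-III against Control (42.6%) and for 3 of 10 in Silica against Control (43.2%). Those shares are over tested genes, whereas the member counts include untested Fbln2, which is 1 of the 3 in Silica against Control. The comparisons share libraries, so their counts are not independent of each other.

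**Figure D3:**
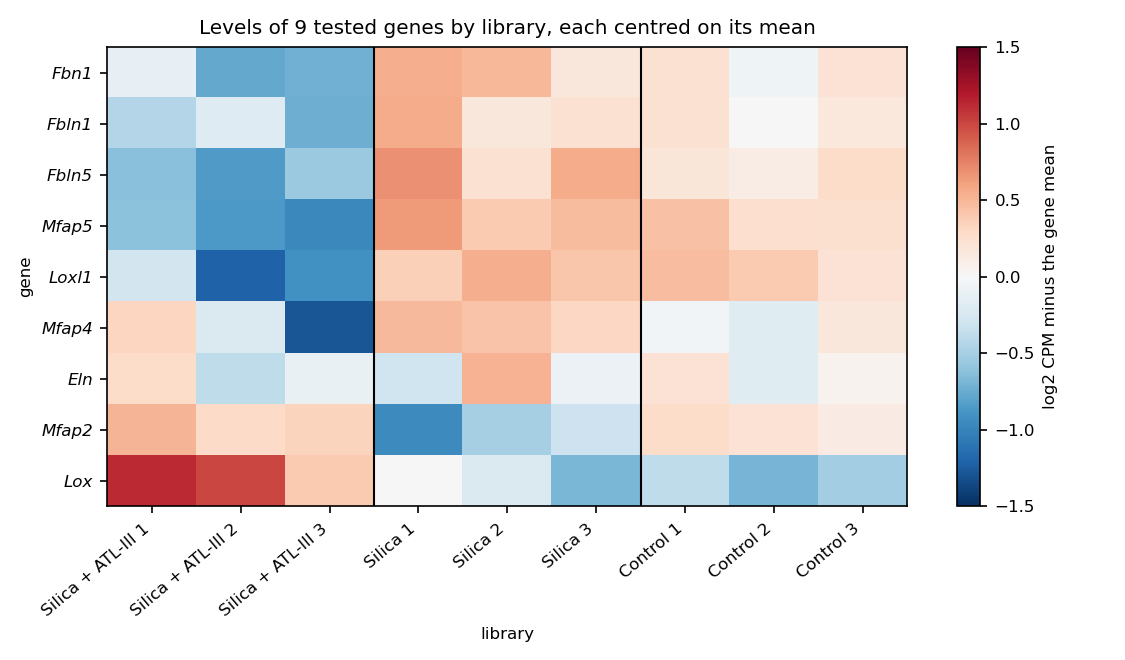
Log2 CPM (counts scaled to library size and TMM factors) of the 9 tested genes (rows), centred on each gene's mean, in the 9 libraries (columns). The top 5 rows are negative in all 3 Silica + ATL-III libraries, with Fbn1 in Silica + ATL-III 1 nearest 0 at -0.12. Mfap2 is negative in the 3 Silica libraries and positive in the other 6, and Lox is positive only in Silica + ATL-III.

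Among the members, Fbln5 and Mfap5 had the most similar profiles over the 9 libraries, with a root mean square difference of 0.180 in centred log2 values. Next were Mfap5 and Loxl1 at 0.203 and Fbn1 and Fbln1 at 0.246. The balance of paired genes within libraries is given here as FPKM ratios, which were chosen after their values were seen. Lox over Loxl1 was 15.9, 28.2 and 15.002 in Silica + ATL-III, 4.71, 3.56 and 2.83 in Silica and 3.38, 2.85 and 3.64 in Control. The microfibril glycoprotein ratio Mfap2 over Mfap5 was 2.55, 2.59 and 2.88 in Silica + ATL-III, 0.388, 0.628 and 0.673 in Silica and 1.04, 1.14 and 1.07 in Control. That ratio took a separate range in each group, lowest in Silica and highest in Silica + ATL-III. Mfap2 over Fbn1 followed the same order, at 5.71 to 7.70 in Silica + ATL-III, 1.30 to 2.63 in Silica and 3.46 to 4.49 in Control. For Eln over Fbn1 the Silica + ATL-III libraries held 4.42 to 5.20, above 1.89 to 3.47 in Silica and 3.04 to 3.37 in Control.

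**Figure D4:**
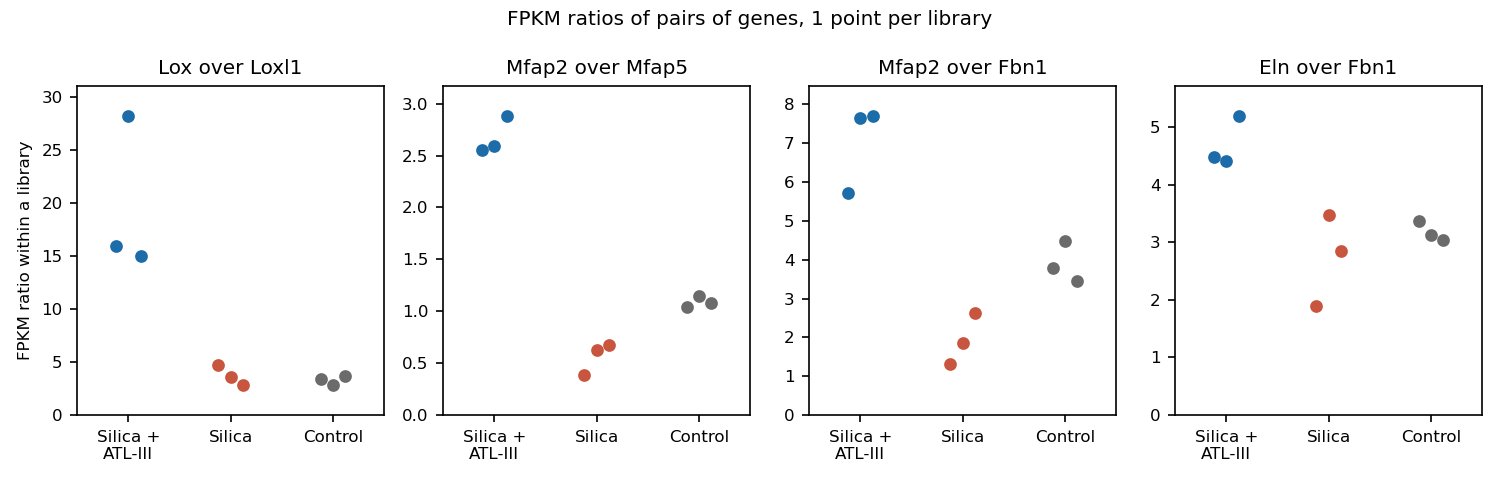
FPKM ratios of 4 gene pairs within each library (vertical axes from 0, 1 point per library) in Silica + ATL-III, Silica and Control. Lox over Loxl1 is 15.002 to 28.2 in Silica + ATL-III and at most 4.71 elsewhere, and Mfap2 over Mfap5 separates all 3 groups.

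Other genes of the elastic fibre changed in both directions. For this and the following lists, the counts called stand beside the shares of all tested genes called. Those were 21.2% in Silica + ATL-III against Silica, 15.9% in Silica + ATL-III against Control and 16.9% in Silica against Control. Of 24 other elastic fibre components, 20 were tested, with a median log2 fold change of -0.08 in Silica + ATL-III against Silica, -0.40 in Silica + ATL-III against Control and -0.30 in Silica against Control. In Silica + ATL-III against Silica, edgeR called 5 lower and 3 higher (3 to 4 lower with 1 library left out, with 3 without Silica + ATL-III 2, Silica + ATL-III 3 or Silica 3). Hmcn1, a large fibulin family protein, had 1.24 ± 0.176 FPKM in Silica + ATL-III and 3.67 ± 0.540 FPKM in Silica, and fell by 1.55 ± 0.13 on the log2 scale (adjusted p = 6.3e-05). Ltbp2, a microfibril protein of the latent TGF-beta binding family, averaged 2.63 ± 0.490 FPKM in Silica + ATL-III, 9.56 ± 3.02 FPKM in Silica and 4.46 ± 0.200 FPKM in Control. It fell by 1.85 ± 0.22 against Silica (edgeR adjusted p = 0.00031). Efemp2, or fibulin 4, which brings lysyl oxidase to elastin, also fell (-0.72), while Vcan, a large proteoglycan that binds fibrillin, rose by 2.10 ± 0.23.

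In Silica against Control, 6 of these 20 were lower and 1, Ltbp2 (1.21 ± 0.22), was higher (5 to 6 and 1 to 2 with a library left out, 2 being without Silica 2). Tnxb, a tenascin that associates with elastic fibres and collagen, had 2.00 ± 0.410 FPKM in Silica and 7.25 ± 1.36 FPKM in Control, and fell by 1.76 ± 0.16 (edgeR adjusted p = 0.00011). Ltbp4, which guides elastin assembly through fibulin 5, fell by 0.98, and the ADAMTS-like genes Adamtsl4, which aids fibrillin deposition, and Adamtsl5 fell by 0.96 and 0.65. Against Control, Silica + ATL-III had 8 lower and 2 higher (5 lower without Control 2), with Hmcn1 (-1.86 ± 0.13), Tnxb (-1.91 ± 0.16) and Emilin2, an elastin microfibril interface protein, at 2.21 ± 0.24.

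Of 21 other crosslinking enzymes and their helpers, 17 were tested (median log2 fold change 0.14 in Silica + ATL-III against Silica, -0.23 in Silica + ATL-III against Control and -0.18 in Silica against Control). In Silica + ATL-III against Silica 2 were called higher and 1 lower, a smaller share than the 21.2% called over all tested genes. With 1 library left out these counts were 1 to 3 and 1 to 2, moved by Silica + ATL-III 1, 2 and 3, Silica 1 and Silica 3. Tgm1, a transglutaminase best known from epithelia, had 2.86 ± 0.276 FPKM in Silica + ATL-III and 0.900 ± 0.240 FPKM in Silica, and rose by 1.68 ± 0.31 (edgeR adjusted p = 0.0037). Pcolce, an enhancer of procollagen processing, fell by 0.61 ± 0.13 (adjusted p = 0.0066). The prolyl hydroxylase gene P4ha2 was the second higher one (0.44 ± 0.14, adjusted p = 0.043), a call lost without Silica + ATL-III 1, Silica + ATL-III 2 or any Silica library. After silica alone 2 were higher and 2 lower against Control, or 0 to 2 and 0 to 3 with a library left out. The higher count moved by more than 1.5 times without Silica 1, Control 2 or Control 3, and the lower count did so without each library but Silica 2. Against Control, Silica + ATL-III had 3 higher and 6 lower (1 higher without Control 2, and 2 to 5 lower with a library left out, the largest moves being without Control 1 or Control 3). Loxl2, the related lysyl oxidase that acts on collagen IV, was among the lower ones (-0.86).

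Most of the tested proteases that can cut elastin rose with silica and were lower with ATL-III than with silica alone. Of 15 listed, 10 were tested, with a median log2 fold change of -1.09 in Silica + ATL-III against Silica, 1.04 in Silica + ATL-III against Control and 1.51 in Silica against Control. edgeR called 8 higher and none lower in Silica against Control. In Silica + ATL-III against Silica, 8 were lower and 1 was higher (5 lower without Silica + ATL-III 2), and against Control 5 were higher in Silica + ATL-III and none was lower (3 higher without Silica + ATL-III 1, Silica + ATL-III 3 or any Control library, and 1 lower without Silica + ATL-III 1). Mmp12, the macrophage elastase, averaged 12.1 ± 5.21 FPKM in Silica + ATL-III, 175 ± 109 FPKM in Silica and 1.19 ± 0.137 FPKM in Control. The elastin- and collagen-degrading cathepsin K gene Ctsk averaged 79.6 ± 15.4 FPKM in Silica + ATL-III, 328 ± 128 FPKM in Silica and 18.5 ± 1.74 FPKM in Control. Mmp9, a gelatinase of neutrophils and macrophages, was the 1 tested gene called higher with ATL-III than in Silica. It had 23.6 ± 5.70 FPKM against 2.39 ± 0.805 FPKM (3.33 ± 0.46, edgeR adjusted p = 0.00063). The neutrophil elastase gene Elane and the related Prtn3 and Ctsg did not reach the filter. The number of proteases called higher in Silica + ATL-III against Silica rose with no filter and with edgeR's own filter, to at most 3. Against Control that number was 3 to 10 over the settings other than leaving out a library.

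Of 18 listed inhibitors of such proteases, 11 were tested, with 4 higher and 1 lower in Silica + ATL-III against Silica (2 lower without Silica + ATL-III 3 or Silica 2). Against Control, 5 were higher and none lower in Silica + ATL-III, and 5 were higher and 1 lower in Silica, where leaving out any single library gave 3 to 4 higher and 0 lower. The median log2 fold change was 0.03 in Silica + ATL-III against Silica, 0.63 in Silica + ATL-III against Control and 0.29 in Silica against Control. Wfdc17 had the smallest p of the list in all 3 comparisons, at 2703 ± 1122 FPKM in Silica + ATL-III, 460 ± 122 FPKM in Silica and 53.3 ± 17.5 FPKM in Control. It rose by 2.57 ± 0.32 in Silica + ATL-III against Silica (edgeR adjusted p = 0.00036) and by 3.22 ± 0.33 in Silica against Control (adjusted p = 0.00022). Slpi, the secretory inhibitor of neutrophil elastase, had 98.1 ± 8.38 FPKM in Silica + ATL-III, 68.9 ± 7.79 FPKM in Silica and 35.9 ± 1.02 FPKM in Control. It was higher in Silica + ATL-III than in Control by 1.57 ± 0.12 on the log2 scale (edgeR adjusted p = 1.1e-05) and in Silica than in Control by 1.04 ± 0.12 (adjusted p = 0.00036). Serpina3n, a serine protease inhibitor of the acute phase, averaged 129 ± 72.4 FPKM in Silica + ATL-III, 18.4 ± 1.35 FPKM in Silica and 18.5 ± 4.51 FPKM in Control. Cstb, which encodes cystatin B, an inhibitor of cathepsins, was lower in Silica + ATL-III than in Silica by 1.08 ± 0.19 (adjusted p = 0.0023) and higher in Silica than in Control by 1.71 ± 0.19 (adjusted p = 0.00036).

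**Figure D5:**
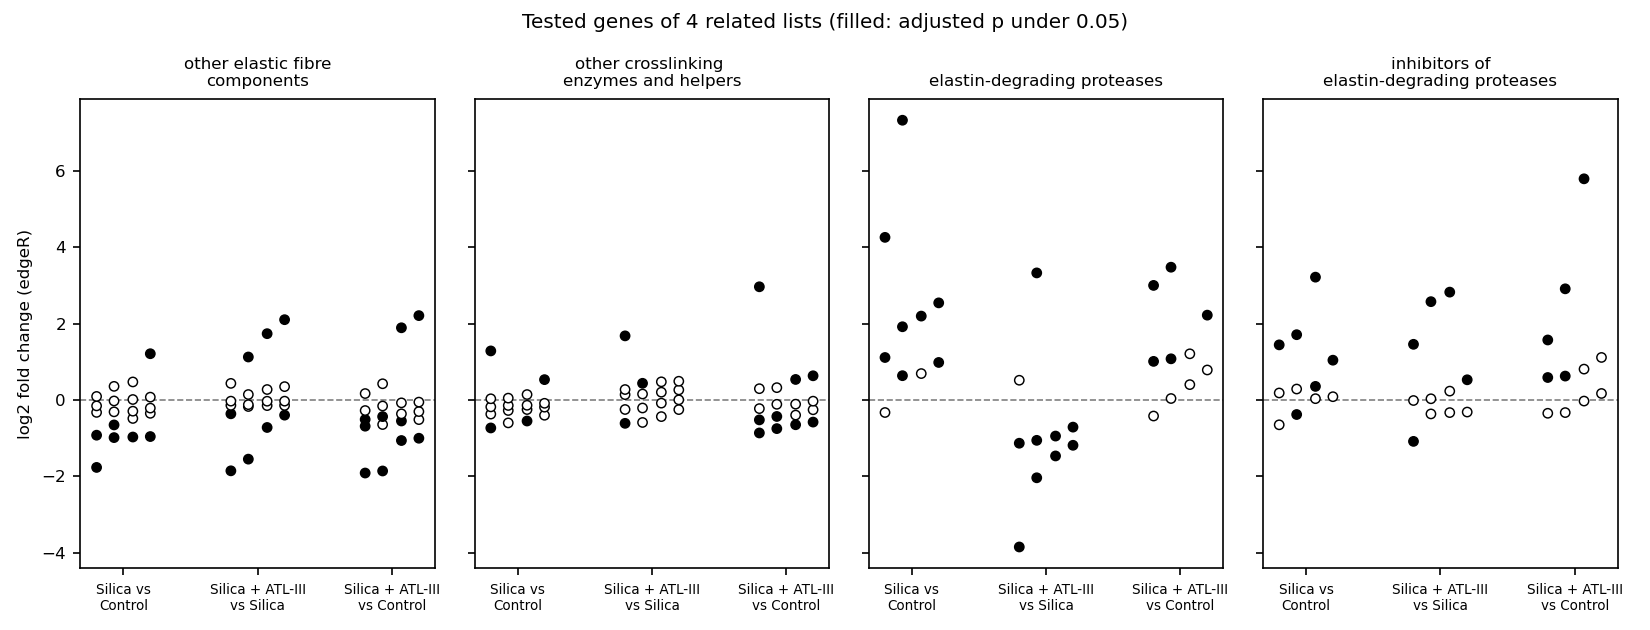
Log2 fold changes from edgeR (vertical axis) of the tested genes of 4 lists in the 3 comparisons, 1 point per gene, filled where the adjusted p was under 0.05. The proteases lie mostly above 0 in Silica vs Control and mostly below 0 in Silica + ATL-III vs Silica, with Mmp9 at 3.33 as the exception, whereas the other elastic fibre components lie on both sides.

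Receptors and integrins that bind elastic fibre proteins were tested for 12 of 13 genes, with 5 lower and 1 higher in Silica + ATL-III against Silica (8 lower without Silica 2). Against Control, Silica + ATL-III had 2 higher and 1 lower (2 lower without Silica + ATL-III 1) and Silica had 5 higher and 1 lower (3 higher without Silica 1, Control 2 or Control 3, 7 higher without Silica 2, and 0 lower when any library other than Silica 2 was left out). Medians were -0.37 in Silica + ATL-III against Silica, 0.10 in Silica + ATL-III against Control and 0.48 in Silica against Control on the log2 scale. Itgb6, the epithelial partner of the TGF-beta activating integrin, had 7.76 ± 2.12 FPKM in Silica + ATL-III and 17.6 ± 0.866 FPKM in Silica, and fell by 1.16 ± 0.18 (edgeR adjusted p = 0.0013). Itga8, an integrin chain of contractile and interstitial cells, was lower in Silica + ATL-III than in Silica (-0.66 ± 0.12, adjusted p = 0.0037) and than in Control (-1.11 ± 0.13, adjusted p = 0.00016). The single higher gene, Itgb3, lost its call without either of Silica + ATL-III 1 and 2 or without any Silica library.

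Markers of the cells that make elastic fibres also differed between the groups, in ways that varied with the cell type, and their part in the changes of the members was not tested. Of 16 fibroblast markers 7 were lower and 1 was higher in Silica + ATL-III against Silica (2 higher without Silica + ATL-III 3), and their summed FPKM was 1209.69 to 1666.42 in Silica + ATL-III, 1560.23 to 1750.13 in Silica and 2349.68 to 2576.31 in Control. In Silica + ATL-III against Control 10 of the 16 were lower and 1 was higher (8 to 10 lower with 1 library left out). In Silica against Control 6 of the 16 were lower, or 0 to 7 with 1 library left out, a count that moved by more than 1.5 times without Silica 1, Silica 3 or any Control library. Lum, a small proteoglycan of fibroblasts, fell by 1.36 ± 0.17 against Silica (edgeR adjusted p = 0.00033), while Pi16, a marker of adventitial fibroblasts, rose by 2.31 ± 0.30 (adjusted p = 0.00048). Of 8 tested pericyte markers 4 were lower in Silica + ATL-III against Silica and none was higher, with sums of 41.67 to 51.25 FPKM in Silica + ATL-III, 59.15 to 65.08 FPKM in Silica and 69.91 to 79.96 FPKM in Control. Against Control, 6 of the 8 were lower in Silica + ATL-III (5 to 6 with 1 library left out) and 1 in Silica (0 to 1), and none was higher. Of 10 smooth muscle markers 2 were higher and 2 lower in Silica + ATL-III against Silica (0 to 2 and 1 to 2 with 1 library left out, with each of the 6 libraries moving at least 1 of the counts), 6 were lower in Silica + ATL-III than in Control, and 7 were lower in Silica than in Control. Their sums were 61.16 to 82.09 FPKM in Silica + ATL-III, 58.73 to 72.03 FPKM in Silica and 109.62 to 119.70 FPKM in Control. Of 8 tested mesothelial markers 1 was higher and none lower in Silica + ATL-III against Silica (0 to 2 higher with 1 library left out, moved by each library but Silica + ATL-III 2).

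Immune markers moved with the groups as well. All 11 tested neutrophil markers were higher in Silica + ATL-III than in Silica, with summed FPKM of 30102.6 to 45427.9 in Silica + ATL-III, 732.5 to 4507.52 in Silica and 556 to 3886.59 in Control. Macrophage markers summed to 10585.4 to 13949.8 FPKM in Silica + ATL-III, 15389.4 to 17572.7 FPKM in Silica and 7836.14 to 9943.52 FPKM in Control. Of these 12 markers, 3 were called lower and 1 higher in Silica + ATL-III than in Silica (1 to 4 and 0 to 1 with 1 library left out). Against Control, 9 were higher in Silica + ATL-III and 10 in Silica, and none was lower. All 7 tested B cell markers were lower in Silica + ATL-III than in Silica. Lung epithelium markers summed to 115151 to 123787 FPKM in Silica + ATL-III, 69888.6 to 114674 FPKM in Silica and 98274.6 to 113240 FPKM in Control. Of these 12 markers, 1 was lower and none higher in Silica + ATL-III than in Silica, with a median log2 fold change of -0.14. In Silica against Control, 3 were higher and none lower (1 to 4 higher with 1 library left out). Silica 1 alone held the low Silica sum, and Silica 2 and Silica 3 had 112114 and 114674 FPKM. Mesothelial markers summed to 143.91 to 238.90 FPKM in Silica + ATL-III, 151.58 to 173.25 FPKM in Silica and 193.03 to 257.33 FPKM in Control, and cartilage markers to at most 7.73 FPKM in any library. Heart and skeletal muscle markers summed to 49.37 to 88.88 FPKM in Silica + ATL-III, 68.15 to 97.65 FPKM in Silica and 145.24 to 164.47 FPKM in Control. Adipose markers summed to 207.72 FPKM in Control 3 and to at most 74.89 FPKM in any other library. Endothelial markers summed to 354.07 to 443.75 FPKM in Silica + ATL-III, 253.54 to 341.52 FPKM in Silica and 412.13 to 442.84 FPKM in Control. Of these 10 markers, 5 were called higher and 1 lower in Silica + ATL-III than in Silica (2 to 5 higher with 1 library left out). Lox and the neutrophil markers were both higher in Silica + ATL-III as a group. Silica + ATL-III 1, 2 and 3 had neutrophil sums of 30312, 30102.6 and 45427.9 FPKM, and Lox at 104.15, 96.49 and 62.56 FPKM. Whether the tissue makeup had a part in the level of Lox was not tested.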

How the data were processed

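Poly(A) RNA of lung was sequenced with random priming, per the labels' protocols. The submitters' processing notes list Cutadapt 1.9.1, HISAT2 2.0.1, HTSeq 0.6.1 and mm10, with no order. Strand use and annotation release are not given in the sources used here. As deposited by the authors, the table holds raw counts and FPKM for each gene and library, per the file headers. Of the deposited FPKM, 100% were within 0.006 of values recomputed from count, length and column total. Library totals are 16047175 to 17792481, which limits precision for low genes such as Fbln2. None of the 10 start positions in the table matched GENCODE M21 (GRCm38), so only their chromosomes are printed. No 2 libraries of a group were alike within counting error: the smallest chi-square divided by its degrees of freedom was 6.93.

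The 15459 genes that reached 1 FPKM in 3 or more libraries were tested with edgeR's quasi-likelihood test on counts (TMM, 3 group means over all 9 libraries, Benjamini-Hochberg adjustment over all tested genes, call at an adjusted p under 0.05). Errors of log2 fold changes are standard errors, the absolute log2 fold change over the square root of F. Versions were DESeq2 1.42.0, limma 3.58.1 and edgeR 4.0.16 under R 4.3.3. The fits were also run on simulated counts with the same spread beyond counting error for every gene. That check does not cover the uneven spread of these libraries. All 10 members are named, and from each list the called genes with the smallest p (3, or 2 for markers). Some listed genes outside that rule (Efemp2, Ltbp4, Loxl2, Elane, Prtn3, Ctsg) were named after their values were seen, and not every gene the rule picks is described. Members and the 17 other lists (220 genes) were chosen with earlier results of these data known. The alternatives were other scalings, filters, pseudocounts and tools, the 6 libraries compared, a replicate block and leaving out each library. Applying them to the listed genes and list counts was decided after seeing the data.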

Additional observations from a re-analysis of the deposited data

How the results depend on the processing

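With 3 libraries per group, the tested members keep most of their calls. All 7 calls in Silica + ATL-III against Silica, Mfap2 in Silica against Control, and Fbln5, Mfap5, Lox and Loxl1 in Silica + ATL-III against Control were kept without any single library and under the 11 other settings. In Silica against Control, 3 members were called with no filter, 2 with only the 6 libraries compared, and 1 to 2 with 1 library left out (2 without Silica 2). The number of all genes called in that comparison was 862 to 3944 with 1 library left out, against 1925 to 3877 in Silica + ATL-III against Silica and 1474 to 2320 in Silica + ATL-III against Control. Of the uncalled values, Eln in Silica against Control was -0.038 on library totals, -0.0777, -0.0807 and -0.0741 by limma on log2(FPKM + 0.5), log2(FPKM + 0.1) and log2(FPKM + 1), -0.23 without Silica 2 and -0.047 without Control 2, in a range up to 0.23 over the libraries left out. Eln in Silica + ATL-III was 0.0039 against Silica without Silica + ATL-III 2 and 0.14 without Silica 2, and 0.057 and 0.014 against Control without Silica + ATL-III 2 and without Control 1, where the lowest values with a library left out were -0.33 and -0.26. Loxl1 in Silica against Control was -0.016 on library totals and -0.014, -0.015 and -0.014 by limma with the same pseudocounts, and Mfap4 in Silica + ATL-III against Control was 0.11 without Silica + ATL-III 3 and -0.62 without Silica + ATL-III 1. The cause was not tested. Library totals moved the median of all tested genes by -0.10 in Silica against Control and by -0.12 in Silica + ATL-III against Control, and the share of calls that were higher was 32.7% and 34.3% there, against 53.8% and 57.6% with TMM. In Silica + ATL-III against Silica that share was 42.5% with upper quartile factors and 52.6% with TMM. Replicate numbers are shared by the groups. Of 9 same-number pairs 1 correlated above 0.1 (r from -0.097 to 0.108), and pairs with other numbers ran from -0.110 to 0.110. Between Silica and Control, the same-number pairs had r of 0.085, 0.108 and 0.082, and the other pairs ran from -0.110 to 0.028. Same-number pairs that held a Silica + ATL-III library ran from -0.097 to 0.003. The check can neither show nor exclude pairing, because deviations from means of 3 libraries constrain each other. With a replicate block 7, 6 and 1 members were called in Silica + ATL-III against Silica, Silica + ATL-III against Control and Silica against Control, and 2822, 2109 and 2120 genes in all. Fbln2 had the fewest counts of the members in each group, with 47 to 210 per library.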
